A study of Mus musculus with 8 samples.

Results

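Adipocytes are recognised by a small set of transcripts for storing fat, releasing it and signalling to the rest of the body. The 10 genes described here, Adipoq, Plin1, Lpl, Lipe, Pparg, Retn, Lep, Car3, Thrsp and Fabp4, belong to that set and are 10 of the 17488 genes listed for a mouse neuroblastoma experiment. They were selected on 2 measured features, higher levels in the treated tumours and a wide spread between the control tumours. Their differences between the 2 groups are therefore given as a description, with SE but without a test. Each SE is that of the limma fit described below, moderated with the variance of all tested genes. For these 10 genes it is smaller than an SE from their own values alone.

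Whole intra-abdominal tumours of 8 mice homozygous for TH-MYCN were sequenced, 1 library per animal, with tumour cells and stroma together. The transgene expresses human MYCN from the tyrosine hydroxylase promoter, which is active in sympathoadrenal cells, and was carried by every animal. In the panobinostat group (n = 4), animals received 2 doses of 5 mg/kg panobinostat, an inhibitor of histone deacetylases, given 24 h apart. In the vehicle group (n = 4), animals received vehicle on the same schedule. Dosing started at about 6 weeks of age, when tumours reached 200 to 300 mm3 by ultrasound, and tumours were removed 4 h after the second dose. The comparison asks how transcript levels in these tumours differ after panobinostat.

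Summed over the listed genes, read totals were 18664066 to 22235545 in panobinostat libraries and 22055658 to 23830026 in vehicle libraries. Levels are in CPM, counts per 1000000 reads of the library size that the authors used, and 1 CPM was 19.3 to 22.6 reads. Of 16157 genes tested with limma, 31.2% were called higher and 32.4% lower in panobinostat tumours (adjusted p under 0.05, Benjamini-Hochberg), or 63.7% in either direction. Tumour markers were present in both groups: 11 sympathoadrenal markers, among them Chgb and Tfap2b, summed to 1465 to 1989.8 CPM with panobinostat and 3081 to 3692 CPM with vehicle, and 7 of the 11 were lower with panobinostat (median log2 difference -1.89). Panobinostat libraries 3 and 4 stood apart by liver markers, with Alb, the liver's serum albumin gene, at 8715 and 116169 reads. Counts of changed genes in the fat, lipid and brown fat lists are therefore also given without these libraries where the counts moved by more than 1.5 times. Counts for marker lists of other cell types and organs were not repeated without these libraries. The repeated counts are not free of neighbouring organs. Adrenal cortex markers summed to 914 CPM in panobinostat library 1, and exocrine pancreas markers to 672 CPM in panobinostat library 2.

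PPARγ, encoded by Pparg, is a nuclear receptor that pairs with RXR and, with C/EBPα, switches on the fat cell programme. The mature cell takes up fatty acids cut from lipoproteins by LPL, carries them on FABP4, stores them as triglyceride in a droplet coated by perilipin 1 (Plin1), and releases them through lipases that include HSL (Lipe). It also secretes adiponectin (Adipoq), leptin (Lep) and, in the mouse, resistin (Retn). Fat surrounds the adrenal gland and kidney in the abdomen, and in young mice part of it has brown fat character.

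RefSeq promoter windows of 300 bases on GRCm38.p6, the assembly of mm10, were matched for 7 of the genes by symbol, running from 250 bases before to 50 after an annotated start. The 5 windows below are shown as examples that hold matches to the patterns searched, across the regulator, hormone, droplet and synthesis genes. Capitals mark matches on either strand to TTGCNNAA, a core pattern bound by C/EBP factors, to the CCAAT box in those 5 letters, or to a TATA box searched for as TATAA.
Lep, chr6:29059971-29060270, plus strand: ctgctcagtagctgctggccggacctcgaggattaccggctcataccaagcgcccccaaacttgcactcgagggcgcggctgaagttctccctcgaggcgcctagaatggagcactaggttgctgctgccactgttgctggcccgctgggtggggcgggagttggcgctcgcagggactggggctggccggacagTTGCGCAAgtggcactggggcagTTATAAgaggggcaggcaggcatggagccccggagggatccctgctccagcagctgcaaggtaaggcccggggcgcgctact
Adipoq, chr16:23146286-23146585, plus strand: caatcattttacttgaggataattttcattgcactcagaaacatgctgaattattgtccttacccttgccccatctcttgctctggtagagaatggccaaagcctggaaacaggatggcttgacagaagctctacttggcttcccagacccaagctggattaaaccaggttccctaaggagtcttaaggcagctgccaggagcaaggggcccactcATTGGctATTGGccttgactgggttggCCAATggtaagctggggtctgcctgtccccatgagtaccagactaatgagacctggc
Plin1, chr7:79732727-79733026, minus strand: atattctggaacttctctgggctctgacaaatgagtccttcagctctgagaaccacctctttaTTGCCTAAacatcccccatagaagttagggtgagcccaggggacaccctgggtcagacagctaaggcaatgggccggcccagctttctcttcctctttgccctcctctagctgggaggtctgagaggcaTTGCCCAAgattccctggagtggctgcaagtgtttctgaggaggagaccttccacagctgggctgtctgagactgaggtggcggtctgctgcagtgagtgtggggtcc
Pparg, chr6:115421816-115422115, the third start in the table, plus strand: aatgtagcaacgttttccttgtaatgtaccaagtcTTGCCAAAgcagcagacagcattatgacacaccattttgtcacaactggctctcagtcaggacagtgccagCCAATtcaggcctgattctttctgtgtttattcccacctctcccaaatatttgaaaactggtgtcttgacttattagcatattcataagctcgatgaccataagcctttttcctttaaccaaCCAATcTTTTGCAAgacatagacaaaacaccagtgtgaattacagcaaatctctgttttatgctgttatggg
Thrsp, chr7:97417501-97417800, minus strand: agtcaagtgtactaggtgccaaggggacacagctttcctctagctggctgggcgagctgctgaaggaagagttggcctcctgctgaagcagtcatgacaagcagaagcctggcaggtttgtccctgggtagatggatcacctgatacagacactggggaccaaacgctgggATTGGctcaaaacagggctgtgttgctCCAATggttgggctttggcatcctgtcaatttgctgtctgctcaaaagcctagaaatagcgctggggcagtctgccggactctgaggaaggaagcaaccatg

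The Lep window held TTGCGCAA at -55 and an overlapping pair of TATAA matches, 1 per strand, from -32, counted from the start. The Plin1 window held TTGCCTAA at -187 and TTGCCCAA at -58. The third Pparg window held TTGCCAAA at -215 and TTTTGCAA at -16, besides CCAAT at -144 and -22. Adipoq had 3 CCAAT matches, at -34, -27 and -7, and Thrsp had 2, at -79 and -52. The windows did not all carry the same letters: those of Retn, the first start of Pparg and the second start of Lipe had no match to any of the 5 patterns searched. Of 32851 promoter windows of this length, 10.8% held TTGCNNAA, 37.4% held CCAAT and 24.9% held TATAA. The E-box CACGTG was in 7.15% of all windows and in the first Lipe window, at -155. AGGNCANAGGNCA, a strict form of the DR1 repeat bound by PPARγ with RXR, was in 0.381% of all windows and in none of the 10 windows matched. The patterns were chosen after the windows had been seen, and a match is a description of letters, not of a bound site.

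Pparg (chromosome 6, 115360951 to 115490399, plus strand; coordinates of genes are on mm10 with GENCODE M21) was the gene of the set whose groups came closest to overlap. Its level was 20.6, 13.8, 19.4 and 17.3 CPM in the 4 panobinostat libraries, against 12.2, 5.88, 1.95 and 2.03 CPM in vehicle libraries 1 to 4. The groups did not overlap, but the lowest panobinostat library was only 1.14 times vehicle library 1, and vehicle libraries 3 and 4 were far below both. The difference, panobinostat minus vehicle, was 2.09 on the log2 scale (SE 0.54).

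Among the hormone genes, vehicle library 1 was again the highest vehicle tumour and library 2 the next. Adipoq (chromosome 16, 23146536 to 23158028, plus strand) had 93.7, 107, 153 and 98.1 CPM with panobinostat, against 30.6, 8.77, 2.75 and 2.41 CPM with vehicle. Every panobinostat library lay at least 3.06-fold above every vehicle library, and the log2 difference was 4.08 (SE 0.71). Within the vehicle group alone, library 1 was 12.7 times library 4.

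Retn (chromosome 8, 3655770 to 3660110, plus strand) had 11.9, 14.6, 18.5 and 7.95 CPM with panobinostat, against 4.68, 0.931, 0.798 and 0.283 CPM with vehicle. The groups were apart, with a log2 difference of 3.62 (SE 0.71), and panobinostat library 4 was the lowest of its group. Lep (chromosome 6, 29060220 to 29073877, plus strand), whose product signals the size of fat stores, was the rarest transcript of the set, with 36, 74, 80 and 92 reads in the panobinostat libraries, against 31, 7, 6 and 0 reads in the vehicle libraries. Vehicle library 1 came within 1.18 times of panobinostat library 1 in CPM, and with single-digit counts below it the log2 difference of 3.75 (SE 1.05) depends on the 0.5 reads added to each count. Retn and Lep reached 1 CPM in 1 of 4 vehicle libraries each, so they entered the tested set through the panobinostat libraries. The other 8 genes reached 1 CPM in all 8 libraries.

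For the droplet coat gene Plin1 (chromosome 7, 79720218 to 79732903, minus strand), whose protein guards the droplet against lipases until it is phosphorylated, levels were 42.8, 44.7, 53.1 and 40.3 CPM with panobinostat, against 22.2, 8.63, 1.42 and 1.28 CPM with vehicle. The panobinostat tumours were within 1.32-fold of each other, whereas the vehicle tumours spanned 17.4-fold. The log2 difference was 3.37 (SE 0.82).

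Lipe (chromosome 7, 25379527 to 25398710, minus strand) had the smallest difference of the 10 genes. It was at 76.1, 75.2, 86.0 and 90.9 CPM with panobinostat, against 62.7, 35.6, 16.5 and 21.9 CPM with vehicle, a log2 difference of 1.45 (SE 0.35). The groups did not overlap, by a margin of 1.20-fold at vehicle library 1. Its lowest vehicle level was library 3, at 373 reads, where Adipoq had 62 and Plin1 had 32. Lipe is also expressed outside fat, including in steroid-producing cells of the adrenal cortex.

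The genes of uptake and carriage were among the most abundant. Lpl (chromosome 8, 68880491 to 68907448, plus strand) had 728, 749.9, 936 and 678 CPM with panobinostat, against 234, 207, 68.0 and 48.1 CPM with vehicle. Here vehicle library 2 was close to library 1, and the lowest panobinostat library was 2.90 times the highest vehicle library. The log2 difference was 2.77 (SE 0.47). LPL is made by macrophages and muscle as well as by fat cells.

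Fabp4 (chromosome 3, 10204088 to 10208576, minus strand) varied widely between vehicle tumours. Its level was 641, 733, 833 and 638 CPM with panobinostat, against 454, 164, 26.8 and 14.0 CPM with vehicle. The lowest panobinostat library was 1.41 times vehicle library 1, which in turn was 32.3 times vehicle library 4. The log2 difference of 3.28 carried an SE of 0.94. Fabp4 is also a transcript of capillary endothelium and macrophages.

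Thrsp and Car3 were furthest from overlap. Thrsp (chromosome 7, 97412938 to 97417730, minus strand), a thyroid hormone responsive gene tied to fatty acid synthesis in fat and liver, had 66.5, 67.4, 70.2 and 152 CPM with panobinostat, against 14.2, 5.24, 1.37 and 1.94 CPM with vehicle. Panobinostat library 4 stood above the other 3 of its group, and all 4 were at least 4.69 times the highest vehicle library. The log2 difference was 4.46 (SE 0.66).

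Car3 (chromosome 3, 14863512 to 14872523, plus strand), a carbonic anhydrase abundant in fat and slow muscle, had the largest difference of the set. It was at 824, 990.2, 1368 and 1037 CPM with panobinostat, against 111, 48.9, 16.3 and 8.74 CPM with vehicle. The lowest panobinostat library was 7.44 times the highest vehicle library, and the log2 difference was 5.13 (SE 0.67).

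**Figure D1:**
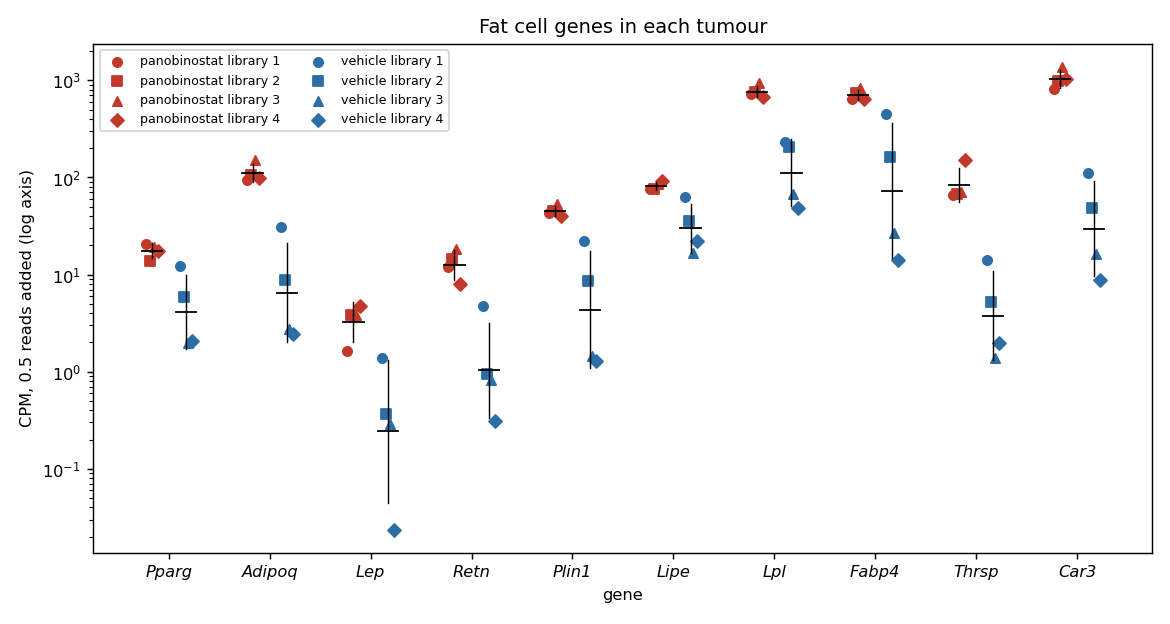
Levels of the 10 fat cell genes in each library, in CPM with 0.5 reads added, on a log axis, with panobinostat libraries left of vehicle libraries for each gene; bars are the group mean ± SD of the log2 values (n = 4). The panobinostat points sit close together above the vehicle points, of which library 1 is the highest and library 3 or 4 the lowest. For Adipoq that is 93.7 to 153 CPM with panobinostat and 2.41 to 30.6 CPM with vehicle.

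Set side by side, all 10 genes had their 4 panobinostat values above their 4 vehicle values, as did 28.5% of all tested genes. The genes were picked for that pattern, so nothing is read from the count. Their median log2 difference was 3.49, against -0.02 for all genes tested. The 10 genes together took 0.252%, 0.289%, 0.363% and 0.280% of reads in the panobinostat libraries, against 0.0924%, 0.0449%, 0.0132% and 0.00895% in the vehicle libraries. In bulk tumours, fewer fat cells and less of these RNAs per fat cell cannot be told apart.

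Per kilobase of exon, the order of the levels was similar in both groups. Car3 was highest with panobinostat, at a mean of 368 CPM per kb, followed by Fabp4 at 158, Adipoq at 81.7, Lpl at 73.8 and Thrsp at 40.6. Lipe (13.9), Plin1 (9.73), Retn (8.37), Pparg (6.02) and Lep (1.04) followed. With vehicle, Fabp4 came first at 36.7 CPM per kb, then Car3 at 16.1, Lpl at 13.3 and Adipoq at 8.06, down to Lep at 0.147. Among the panobinostat libraries the ranges of Adipoq and Lpl overlapped, as did those of Plin1 and Retn.

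How much of the contrast existed between vehicle tumours was set out by comparing each with the panobinostat mean. Vehicle library 1 was nearest in every one of the 10 genes and library 2 came next in every one. These were also the highest and second highest vehicle libraries, an order of vehicle levels found in 15.7% of all tested genes. Vehicle library 4 was the lowest in 7 genes and library 3 in Lipe, Pparg and Thrsp. The panobinostat mean was 1.31 times vehicle library 1 for Lipe, 1.46 times for Pparg, 1.57 times for Fabp4 and 2.04 times for Plin1. It was 3.69 times that library for Adipoq, 6.28 times for Thrsp and 9.53 times for Car3. Without vehicle library 1 the median log2 difference of the set was 4.25, and without vehicle library 4 it was 2.71.

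The spread itself was uneven between groups. The SD of log2 CPM was 0.13 (Lipe) to 0.68 (Lep) in the panobinostat libraries and 0.84 (Lipe) to 2.45 (Lep) in the vehicle libraries, n = 4 each. The median SD was 0.277 with panobinostat and 1.63 with vehicle, and over all tested genes it was 0.156 with panobinostat and 0.296 with vehicle. The vehicle SD was the larger in all 10 genes and in 81.7% of all tested genes. The genes were chosen partly for this spread, so it too is a description.

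The genes did not keep fixed proportions to each other. Relative to Adipoq within the same library, Car3 was 3.14, 3.21, 3.16 and 3.40 log2 units higher with panobinostat, against 1.85, 2.48, 2.56 and 1.85 with vehicle. Lipe ran the other way: it was -0.30, -0.51, -0.83 and -0.11 relative to Adipoq with panobinostat, against 1.03, 2.02, 2.58 and 3.17 with vehicle. Neither pair of groups overlapped. Among the vehicle libraries the Lipe ratio was lowest in library 1, which had the most Adipoq reads (693), and highest in library 4, which had the fewest (51).

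Pparg averaged -2.65 relative to Adipoq with panobinostat and -0.66 with vehicle, and Lpl averaged 2.79 with panobinostat and 4.10 with vehicle. Plin1 shifted less, averaging -1.30 with panobinostat and -0.58 with vehicle, as did Fabp4, averaging 2.67 with panobinostat and 3.48 with vehicle. The group means of Retn (-3.13 with panobinostat, -2.66 with vehicle), Lep (-5.08 with panobinostat, -4.75 with vehicle) and Thrsp (-0.41 with panobinostat, -0.79 with vehicle) were closer than the range within either group. The SD of this ratio for Car3 was 0.12 with panobinostat, the smallest of the 9 genes in that group, and 0.39 with vehicle.

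**Figure D2:**
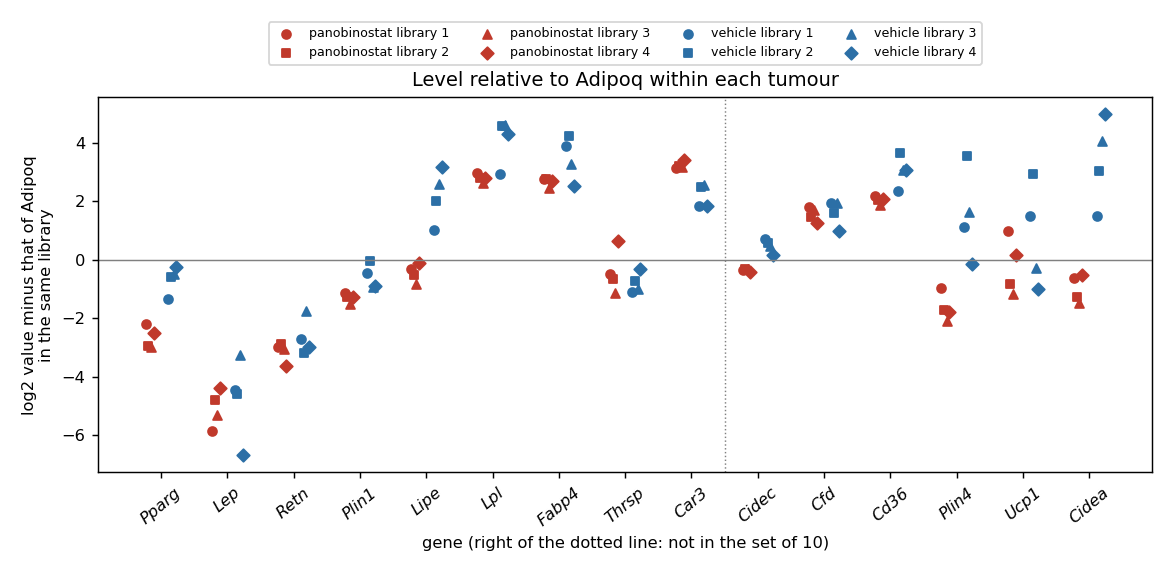
Log2 level of each gene minus log2 level of Adipoq in the same library, for the other 9 genes of the set and for further fat genes, with panobinostat left of vehicle. For Retn and Lep the group means lay near the same height. Their vehicle points were spread over 1.45 log2 units for Retn and 3.42 for Lep. Lipe, Pparg, Plin1, Plin4, Cidec, Cd36 and Cidea were higher relative to Adipoq in vehicle libraries, and Car3 was higher in panobinostat libraries.

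The transcripts most like the set were found by correlating every other tested gene with the mean of the 10 across the 8 libraries, after each group's mean had been taken off. The closest 10 were Gpat3 (Pearson's r = 0.992), Cidec (0.990), Gm16170 (0.990), Gm13988 (0.990), Adig (0.989), Aqp7 (0.988), H2-T22 (0.988), Scd1 (0.987), H2-T23 (0.987) and Hif3a (0.987). These are descriptions over 8 libraries that share the wide vehicle spread. Among the 10 genes themselves, each of which is part of that mean, r ran from 0.874 for Lep to 0.995 for Car3.

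Cidec encodes a droplet fusion protein of white fat, Adig (adipogenin) is a fat-enriched small protein, AQP7 lets glycerol leave the fat cell, and GPAT3 is an acyltransferase of triglyceride synthesis. Gpat3 had 191, 137, 218 and 158 reads with panobinostat, against 105, 34, 13 and 6 with vehicle. Adig had 141, 118, 187 and 133 reads with panobinostat, against 85, 23, 5 and 1 with vehicle. Both followed the vehicle order of the set. H2-T22 and H2-T23 are non-classical MHC class I genes with near-identical relatives, so their reads could be split or lost in counting. H2-T22 had 712, 669, 715 and 625 reads with panobinostat, against 307, 134, 92 and 65 with vehicle.

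The wider fat and lipid programme was read from 140 other genes in 8 lists, of which 137 were in the table and 130 were tested. Of the 130, 80 were higher and 17 lower with panobinostat (limma, adjusted p under 0.05), beside 31.2% and 32.4% of all genes tested. The median log2 difference was 1.19. In 68 of them all panobinostat values lay above all vehicle values. Some of the 80, such as Adrb3, reached 1 CPM in no vehicle library and passed the filter through the panobinostat libraries alone. Without panobinostat libraries 3 and 4 the counts were 61 higher and 10 lower.

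Among 24 other fat cell markers, 20 rose, 1 fell and 3 passed in neither direction, with a median of 3.15. Of all genes tested, 31.2% were higher and 32.4% lower. Some of the 20 were highest in panobinostat library 4, the library with the most liver marker reads. Rbp4 had 7.12, 7.57, 21.4 and 185.6 CPM with panobinostat, and Agt 17.7, 4.46, 12.3 and 61.0 CPM. Both are named after their values were seen. Others, such as Cidec (73.6, 85.2, 124 and 73.1 CPM), were not highest there. What liver contributed to the count was not tested. Adrb3, the β3-adrenergic receptor through which noradrenaline starts lipolysis in mouse fat, had 8.96, 8.6, 14.2 and 6.83 CPM with panobinostat, against 0.662, 0.147, 0.31 and 0.52 CPM with vehicle, a log2 difference of 4.61 (SE 0.44). Adrb3 reached 1 CPM in 4 panobinostat and 0 vehicle libraries. It passed the filter through the panobinostat libraries alone, so its call is a description. Its groups were far apart, and its lowest vehicle value was in library 2. Cebpa, which partners Pparg, had 1317, 1008, 1245 and 1495 reads with panobinostat, against 381, 137, 122 and 110 with vehicle (log2 3.02, SE 0.35, limma adjusted p = 7.39e-05). Tmem120b rose by 1.58 (SE 0.17, adjusted p = 6.04e-05). Arxes2, whose near-identical neighbour Arxes1 may share its reads, fell by 0.32 (SE 0.11, adjusted p = 0.0328). That call was lost without panobinostat library 1, 2 or 4 or vehicle library 2 (adjusted p from 0.0625 to 0.0935). It was also lost with library weights (0.0606) and scaling to read totals (0.118). Without panobinostat libraries 3 and 4, 13 of the 24 markers were higher and the Arxes2 call was lost (adjusted p = 0.0919).

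Plin4, another droplet coat gene of fat and muscle, had 1060, 621, 742 and 555 reads with panobinostat, against 1521, 2089, 195 and 46 with vehicle. Its groups overlapped, with vehicle libraries 1 and 2 above every panobinostat library, and it was not called (log2 0.89, SE 1.06, adjusted p = 0.483). It is named here outside the naming rule, because its values were seen to differ from those of Plin1.

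Of 20 adipogenic transcription factors and cofactors, 12 rose and 2 fell (median 0.78), beside 31.2% higher and 32.4% lower of all genes tested. Klf5, among the 12 and named after its values were seen, reached 1 CPM in 0 vehicle libraries. It passed the filter through the panobinostat libraries alone. Stat5a, a factor of growth hormone and cytokine signalling, rose by 2.25 (SE 0.21, adjusted p = 2.34e-05). Ppargc1a, the PGC-1α coactivator of mitochondrial genes, rose by 2.58 (SE 0.27), and Nr1h3, the sterol receptor LXRα, by 1.19 (SE 0.20). Zfp423, a factor of committed preadipocytes that is also expressed in neural cells, had 231, 172, 183 and 211 reads with panobinostat, against 817, 904, 553 and 673 with vehicle, and fell by 1.79 (SE 0.19, adjusted p = 4.55e-05). Zfp467 fell by 0.61 (SE 0.24, adjusted p = 0.0493). That call was lost without panobinostat library 2, 3 or 4 or vehicle library 1, 3 or 4 (adjusted p from 0.0832 to 0.113). It was also lost with library weights (0.108), scaling to read totals (0.0970) and voom weights (0.0520). Leaving out panobinostat libraries 3 and 4 together left 7 of the 20 higher and 1 lower.

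Of 13 tested genes listed as restraining fat cell formation, 5 rose and 6 fell, beside 31.2% higher and 32.4% lower of all genes tested. Dlk1, a preadipocyte factor that is also abundant in sympathoadrenal tumours, had 13407, 13476, 15330 and 15993 reads with panobinostat, against 41594, 40361, 46897 and 51996 with vehicle, and fell by 1.55 (SE 0.14, adjusted p = 1.88e-05). Gata3, which is both a brake on fat cells and a sympathoadrenal identity factor, fell by 1.89 (SE 0.20). Foxo1, which restrains Pparg, rose by 2.58 (SE 0.32). Sfrp1 rose by 3.24 (SE 0.27), but it encodes a secreted Wnt antagonist that is known to favour fat cell formation and so does not do what the list's name says. Hes1, a Notch target, rose by 1.68 (SE 0.24), and the corepressor gene Ncor1 fell by 0.57 (SE 0.08).

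For fatty acid and triglyceride synthesis, 12 of 19 tested genes rose and 2 fell, beside 31.2% higher and 32.4% lower of all genes tested. Mogat2, among the 19 and named after its values were seen, had 3, 1, 1 and 0 vehicle reads. It passed the filter through the panobinostat libraries alone. Dgat2, which adds the last fatty acid of triglyceride, had 3057, 2763, 3547 and 4307 reads with panobinostat, against 714, 904, 542 and 696 with vehicle (log2 2.34, SE 0.20, adjusted p = 1.84e-05). Gpam, the acyltransferase of the first step, rose by 0.90 (SE 0.08) and the elongase Elovl5 by 1.40 (SE 0.13). Elovl6 fell by 1.08 (SE 0.13) and Acsl3 by 0.39 (SE 0.13, adjusted p = 0.0243). The Acsl3 call was lost without panobinostat library 2 or 3 or vehicle library 3 (adjusted p from 0.0548 to 0.0739), and with scaling to read totals (0.0685). The counts were 11 higher and 1 lower of 19 without panobinostat libraries 3 and 4 together. Fasn, which builds palmitate, had 15949, 12111, 9022 and 16058 reads with panobinostat, against 16916, 16077, 19463 and 21747 with vehicle, and was not called (log2 -0.43, adjusted p = 0.0817). Fasn is named here after its values were seen.

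Of 12 uptake and carriage genes, 5 rose and 2 fell, beside the same 31.2% higher and 32.4% lower of all genes tested. Sel1l, needed for LPL to leave the endoplasmic reticulum, rose by 0.99 (SE 0.09), the fatty acid transporter Slc27a1 by 1.55 (SE 0.22) and the LPL inhibitor Angptl4 by 1.45 (SE 0.31, adjusted p = 0.00267). Got2 fell by 0.79 (SE 0.14) and Fabp5, another carrier, by 0.44 (SE 0.10, adjusted p = 0.00507). The Fabp5 call was lost under quantile normalization (adjusted p = 0.245). Without panobinostat libraries 3 and 4, 3 of the 12 were higher and 1 lower.

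Droplet genes gave 8 higher and 1 lower of 15 tested, beside 31.2% higher and 32.4% lower of all genes tested. Rab18 rose by 0.92 (SE 0.08), Plin3 by 2.57 (SE 0.24) and the droplet protein gene Pnpla3 by 2.05 (SE 0.20). Bscl2 (seipin), which shapes new droplets, fell by 0.35 (SE 0.14, adjusted p = 0.0485). That call was lost without any 1 panobinostat library or without vehicle library 3 or 4 (adjusted p from 0.0616 to 0.115). It was lost without panobinostat libraries 3 and 4 together (0.145). Other settings lost it too, among them library weights (0.242), quantile normalization (0.213) and scaling to read totals (0.154). Lipolysis genes gave 10 higher and 2 lower of 15, beside the same 31.2% and 32.4% of all genes tested. The lysosomal lipase Lipa had 4625, 5580, 5934 and 4226 reads with panobinostat, against 1218, 697, 882 and 792 with vehicle (log2 2.60, SE 0.17, adjusted p = 6.02e-06); it is also a gene of macrophages. Adrb1 rose by 2.83 (SE 0.26) and Abhd5, the activator of the fat cell's first lipase, by 1.50 (SE 0.15). With 8, 7, 9 and 5 vehicle reads, Adrb1 was under 1 CPM in each vehicle library and passed the filter through the panobinostat libraries alone. The same held for Hcar1 (8, 3, 1 and 6 vehicle reads) and Hcar2 (7, 2, 10 and 5 vehicle reads). Both are among the 15 lipolysis genes and are named after their values were seen. Pde3b, through which insulin restrains lipolysis, fell by 0.55 (SE 0.12), and the insulin receptor gene Insr by 0.31 (SE 0.11, adjusted p = 0.0328). The Insr call was lost without panobinostat library 2 or 3 or vehicle library 1 or 3 (adjusted p from 0.0558 to 0.103). It was also lost under quantile normalization (0.250), scaling to read totals (0.183) and no variance trend (0.0542). With panobinostat libraries 3 and 4 both left out, 9 of the 15 lipolysis genes were higher and 1 lower.

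Among 12 tested genes of other fat hormones and of hormone receptors, 8 rose and 1 fell, beside 31.2% higher and 32.4% lower of all genes tested. Adipor2, a receptor of adiponectin, had 3935, 3233, 3990 and 3831 reads with panobinostat, against 1993, 1412, 1646 and 2073 with vehicle, and rose by 1.16 (SE 0.12, adjusted p = 4.81e-05). Metrnl rose by 2.92 (SE 0.30) and Rarres2, the chemerin gene, by 2.87 (SE 0.41). Apln fell by 1.23 (SE 0.29, adjusted p = 0.00488). The leptin receptor gene Lepr, named after its values were seen, had 236, 149, 69 and 109 reads with panobinostat, against 102, 34, 21 and 38 with vehicle (log2 1.71, SE 0.50, adjusted p = 0.0144). Its groups overlapped at panobinostat library 3.

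**Figure D3:**
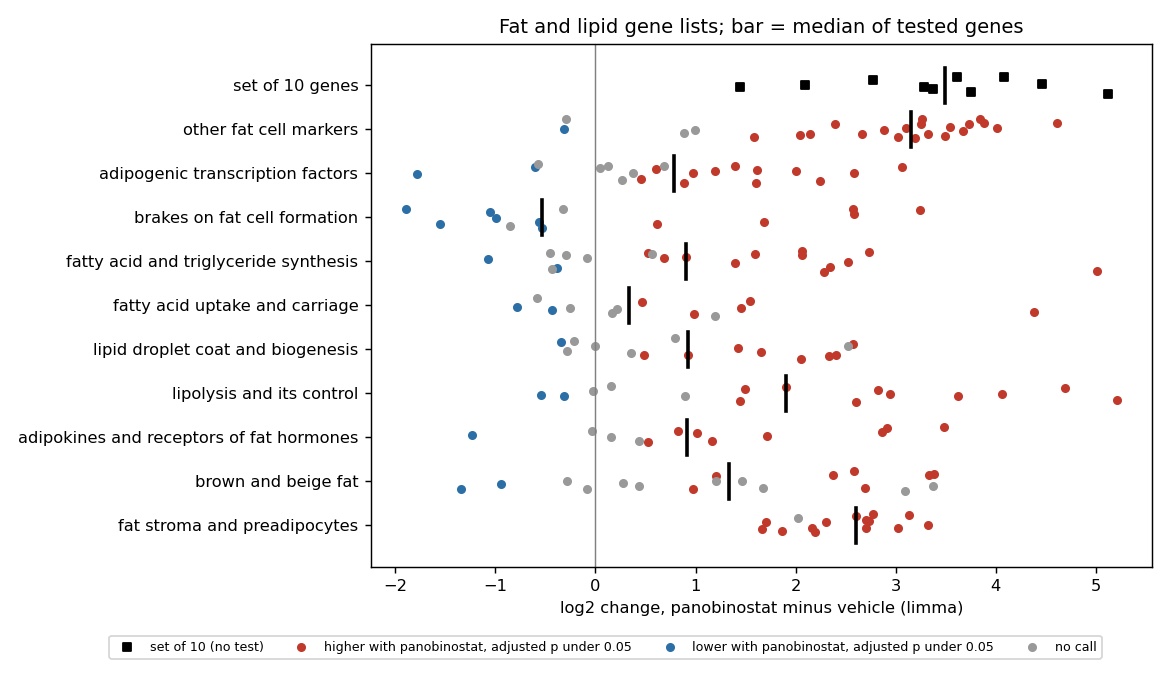
Log2 difference, panobinostat minus vehicle, of every tested gene in the fat and lipid lists and in brown fat and fat stroma lists, coloured by the limma call, with the median as a bar. The 10 fat cell genes are drawn in black as they have no test. Other fat cell markers lie furthest right among the 8 fat and lipid lists (median 3.15), and genes listed as restraining fat cell formation lie on both sides of 0.

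Of 18 tested genes of brown and beige fat, 7 rose and 2 fell, beside 31.2% higher and 32.4% lower of all genes tested, with a median of 1.34. In 5 all panobinostat values lay above all vehicle values, as in 28.5% of all genes. This count and that of higher genes are near the background, while the share of lower genes is under it. Ucp1, the uncoupling protein that defines brown fat, had 4185, 1170, 1423 and 2154 reads with panobinostat, against 1950, 1375, 51 and 25 with vehicle. Its groups overlapped, since vehicle libraries 1 and 2 lay above panobinostat library 2, and it was not called (log2 3.09, SE 1.33, adjusted p = 0.0675). Ucp1 is named outside the naming rule as the defining gene of that list.

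S100b rose by 3.39 (SE 0.41) and Tmem26 by 1.21 (SE 0.23). Prdm16, a brown fat regulator that is also a neural gene, had 190, 226, 196 and 193 reads with panobinostat, against 664, 537, 378 and 630 with vehicle, and fell by 1.35 (SE 0.21, adjusted p = 4.07e-04). Cited1 fell by 0.95 (SE 0.27, adjusted p = 0.0127). Cidea, a droplet protein of brown fat, had 1357, 846, 1137 and 1329 reads with panobinostat, against 1966, 1464, 1032 and 1622 with vehicle, and was not called (log2 -0.29, adjusted p = 0.250). Vehicle libraries 3 and 4, with 62 and 51 Adipoq reads, held 1032 and 1622 Cidea reads. The list gave 4 higher without panobinostat libraries 3 and 4, and 11 higher without vehicle library 2.

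Some other cell types of the abdomen moved with the groups as well, and their part in the results above was not tested. Of all genes tested, 31.2% were higher and 32.4% lower. Of 15 tested markers of fat stroma and preadipocytes 14 were higher with panobinostat, and their 16 listed genes summed to 1377 to 2509 CPM with panobinostat and 284 to 739 CPM with vehicle. Macrophage markers were higher in 11 of 12, at 3169 to 5645 CPM with panobinostat and 667 to 1293 CPM with vehicle. Endothelial markers, 3 of 12 higher and so near the share of all genes, overlapped: 452 to 700 CPM with panobinostat and 138 to 694 CPM with vehicle. Vehicle library 1, the richest in the 10 genes, was the highest vehicle library for all 3 of these sums.

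Organ markers were less even across panobinostat libraries than the fat genes. The 10 genes summed to 2506, 2799, 3541 and 2764 CPM with panobinostat. Liver markers there summed to 231, 242, 1232 and 11011 CPM, adrenal cortex markers to 914, 161, 1324 and 3445 CPM, and exocrine pancreas markers to 15.8, 672, 19.7 and 3881 CPM. With vehicle, these sums did not exceed 127 CPM for liver, 110 CPM for adrenal cortex and 14.6 CPM for pancreas. Kidney markers reached 802 CPM in panobinostat library 3 and at most 12.4 CPM in the other 7 libraries. Of tested markers, 8 of 9 for adrenal cortex, 5 of 5 for liver, 1 of 1 for pancreas and 2 of 3 for kidney were higher, beside 31.2% of all genes tested. Some of these, such as Cyp11a1 at 4, 5, 12 and 9 reads with vehicle, passed the filter through the panobinostat libraries alone. The organ counts were not repeated without panobinostat libraries 3 and 4. The pancreas call, of Cela1, was lost without panobinostat library 2 or any 1 vehicle library (adjusted p from 0.0567 to 0.0812). That of Alb was lost without panobinostat library 3 (0.0536). Both calls were also lost in other settings, among them voom weights (0.103 for Cela1, 0.147 for Alb).

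These values can be set beside the genes that those organs also use. Thrsp was highest, at 152 CPM, in panobinostat library 4, the library with the most liver reads, and was 66.5 to 70.2 CPM in the other 3. Skeletal muscle markers summed to 9555, 257, 935 and 152 CPM with panobinostat, against 28.0, 3393, 456 and 26.5 CPM with vehicle, and limma called none of 12 in either direction (0 at an unadjusted p under 0.05). Car3, also a gene of slow muscle, was lowest of its group in panobinostat library 1, the library with the most muscle reads. The muscle markers summed here do not measure slow muscle separately. What liver or muscle contributed to Thrsp and Car3 was not tested. Without panobinostat libraries 3 and 4 the median log2 difference of the 10 genes was 3.35. Mesothelial markers (2 higher and 1 lower of 8) summed to 38.0 to 70.5 CPM with panobinostat and 26.6 to 111 CPM with vehicle. Lymph node lymphocyte markers (1 higher of 4) summed to 31.6 to 55.6 CPM with panobinostat and 10.1 to 59.3 CPM with vehicle. Both counts of higher genes are near the 31.2% of all genes tested.

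**Figure D4:**
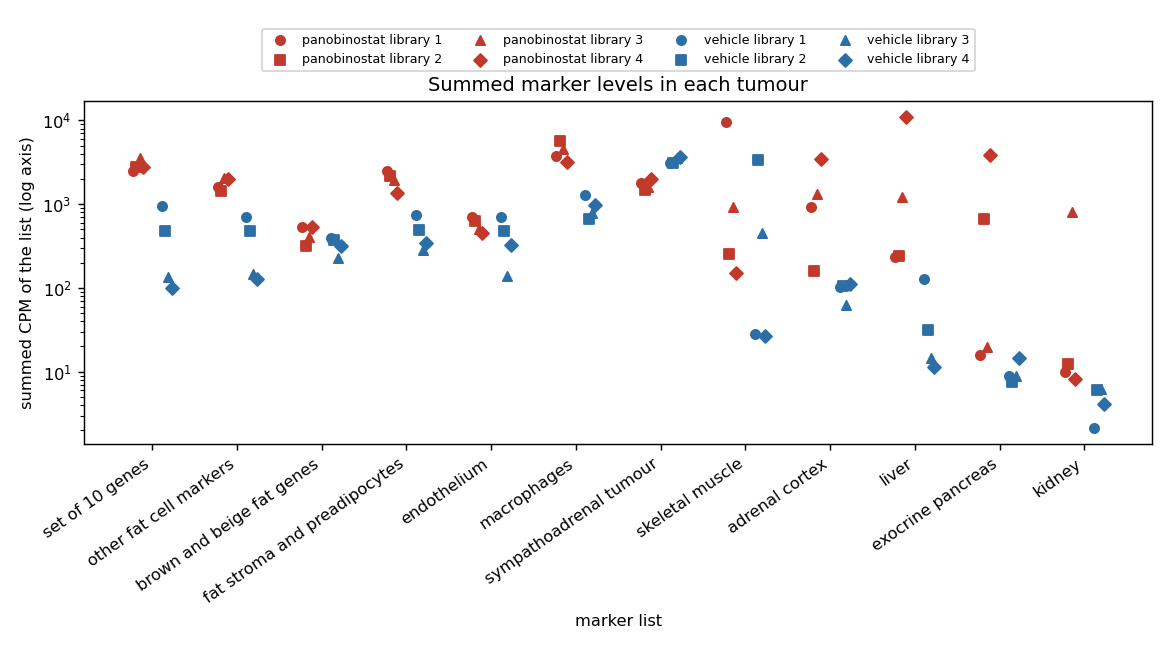
Summed CPM of 12 marker lists in each library on a log axis, with panobinostat libraries left of vehicle libraries. The fat cell genes form a tight panobinostat cluster (2506 to 3541 CPM for the set of 10) over a wide vehicle range (101 to 946 CPM), while liver, pancreas and kidney sums differ widely among the panobinostat libraries.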

How the data were processed

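RNA-seq of 8 whole tumours, 1 per animal, was analysed from 1 deposited table of 17488 genes. Libraries came from total RNA with a TruSeq V2 kit, per the labels' protocols. Tools in the submitters' processing notes are TopHat2, HTSeq, limma and CASAVA 1.8.2, with the build mm10, in no stated order. The sources used here do not give the annotation, the filter or strand use, so reads of overlapping or antisense genes cannot be told apart. The deposited values are log2 CPM with 0.5 reads added to each count, as their steps show: whole reads were recovered from 100% of values within 0.001 read.

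Groups came from the labels, which hold no batch or date, so such a difference cannot be told apart from treatment. Of the identifiers, 17228 matched a symbol and 260 did not. Genes that reached 1 CPM in 4 or more libraries, 16157 in all, entered a limma fit (version 3.58.1, R 4.3.3; lmFit, eBayes with a variance trend, 2 groups, no covariate), with two-sided tests and Benjamini-Hochberg adjustment over all of them at 0.05. The script was tested on simulated data. The members and the lists were chosen with earlier results of these data known. Named genes are the 10, the 3 called genes with the smallest adjusted p per direction in each fat, lipid or brown fat list, the 2 most abundant of each other list, and the 10 most alike; others are marked as named after their values were seen. Of the markers listed for other cell types, 2 are not reported here. Changes of genes near 0 reads are understated. Alternatives were no filter or 5 CPM, no variance trend, library weights, quantile normalization, median centring, scaling to read totals, a further 1 CPM pseudocount, voom weights on recovered reads, and leaving out each library or panobinostat libraries 3 and 4 together.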

Additional observations from a re-analysis of the deposited data

Results flagged for a closer look

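In a group of 4, a library was set apart when its gap to the nearest other library took more of the group's range in log2 CPM than Dixon's 95% critical value allows. Of 168 groups examined 10 were, and chance sets apart about 1 in 20. Among the 10 fat cell genes this was Thrsp alone, at 7.25 log2 CPM (2977 reads) in panobinostat library 4, the library with the most liver marker reads.

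High values were Zfp467 at 3.28 in panobinostat library 1, Cd4 at 5.61 in panobinostat library 2, Metrnl at 2.15 in vehicle library 1, and Kap at 0.65 in vehicle library 3. Low values were Rab18 at 7.09 and Adrb1 at 1.15 in panobinostat library 4, Gm16170 at 0.63 in panobinostat library 1, Scarb1 at 5.42 in vehicle library 3 and Ppargc1a at 0.48 in vehicle library 4, all in log2 CPM.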

How the results depend on the processing

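No paired analysis was possible because the labels give the groups no shared replicate numbers; the numbers only name the tumours. For the 10 fat cell genes, 178 of 179 values under the alternatives lay within 1 SD of the value reported. That SD is the spread between libraries, pooled over the 2 groups. Leaving out 1 library cannot move a difference by more, and some settings leave it unchanged by design, so nothing is read from the count. The log2 differences ran from 1.16 to 5.76 and none reversed, with Adipoq from 3.61 to 4.83 and Fabp4 from 2.41 to 4.16. Lep moved to 1.59 with a further pseudocount of 1 CPM and was not tested under the 5 CPM filter. Without panobinostat libraries 3 and 4, the other fat and lipid genes gave 10 lower in place of 17, and brown and beige fat genes 4 higher in place of 7. Leaving out 1 library at a time, brown and beige fat genes gave 5 to 11 higher, with 11 without vehicle library 2; the cause was not tested. All genes tested gave 5048 higher and 5241 lower, against 4587 and 6098 under quantile normalization, where the median of all genes was -0.14, 4515 and 6064 under median centring, and 5671 and 4612 with scaling to read totals, where the median was 0.10. Reversed log2 differences were those of Cdh5 (-0.035 with library weights, -0.060 to 0.81 leaving out 1 library), Myh4 (-0.15 with library weights), Kap (-0.38 without panobinostat libraries 3 and 4), Cd79a (0.024 with read totals, -0.58 to 0.79 leaving out 1 library) and Chgb (0.12 under quantile normalization, -0.43 to 0.12 leaving out 1 library). Of 1289 values of named genes with a test, 1183 kept direction and side of the threshold and 93 lost the call. Arxes2, Zfp467, Bscl2, Insr, Acsl3, Fabp5, Adig, Aqp7, Cela1, Alb, Gpm6a, Upk3b, Gm13988 and Gm16170 each lost it under at least 1 alternative. Counts under 10 reads, as for Lep and Adig in vehicle libraries 3 and 4, limit the precision of their differences.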

Other observations

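Some lipid genes ran opposite to the fat cell genes among the vehicle tumours. Scd2, the fatty acid desaturase of brain and many growing cells, had 12783, 11692, 12140 and 12696 reads with panobinostat, against 13613, 12064, 22683 and 26940 with vehicle. It was highest in vehicle libraries 3 and 4, where Scd1, the desaturase of fat and liver, was lowest: Scd1 had 23854, 18316, 21731 and 24411 reads with panobinostat, against 14351, 5453, 2436 and 1390 with vehicle. Th, the tyrosine hydroxylase gene of catecholamine cells, had 6858, 7144, 8184 and 6244 reads with panobinostat, against 4966, 3649, 10506 and 9929 with vehicle, and was also highest in vehicle libraries 3 and 4. These genes were picked after their values were seen.

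Some macrophage markers followed the vehicle order of the fat cell genes and others did not. Cd163 and Mrc1, genes of resident tissue macrophages, followed it, although vehicle libraries 2 and 3 were close for Mrc1 (455 and 493 reads). Cd163 had 1028, 598, 754 and 448 reads with panobinostat, against 983, 247, 76 and 38 with vehicle. Lyz2, a gene of macrophages and other myeloid cells, did not: it had 39481, 54200, 44644 and 29531 reads with panobinostat, against 12763, 5586, 9749 and 12622 with vehicle, where library 4 was close to library 1. Cd68 (1265, 806, 958 and 941 reads with vehicle) and C1qa (1859, 1162, 1323 and 1341 reads with vehicle) did not follow it either. The macrophage genes named here were picked after their values were seen. Their values are a description, with no test of the difference.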
